A study of Homo sapiens with 6 samples.

Results

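ACHN cells transfected with siMEX3A_1, a small interfering RNA (siRNA) directed at MEX3A, were compared with ACHN cells transfected with a negative control siRNA (NC). The line ACHN derives from a human renal cell adenocarcinoma and is an established cancer line. The comparison rests on 2 siMEX3A_1 and 2 NC libraries of the 6 in the series, and the other 2 libraries received siMEX3A_2, a further siRNA against the same gene. All cultures were of the same line and were harvested 48 hours after transfection, and each poly(A) mRNA library was read single-end by BGI. The genes described are the rows with a unique name in the siMEX3A_1 table, which were 55928 of 60409. Of these, 34117 were above 0 in at least 1 of the 4 libraries, and 18197 were abundant enough to be tested. The remaining 4481 rows share 1369 names among themselves, and they entered the fit but were not described. Whether the pair of libraries in a group represents independent cultures is left unsaid in the labels, so the p-values capture only library-to-library spread, possibly of technical origin.

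MEX3A is an RNA-binding protein with KH domains, through which it contacts mRNAs, and a RING domain of the kind found in ubiquitin ligases. Proteins of its family act after transcription, on the stability and translation of the mRNAs they bind. An siRNA is loaded into an Argonaute protein and directs cleavage of the mRNA that matches it, so the first readout of a knockdown is the level of the targeted mRNA.

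The libraries held 18879873 and 18996745 expected counts in NC and 19158723 and 19139114 with siMEX3A_1. Normalised counts are these counts scaled by TMM library factors to a common library size. MEX3A itself had 93.3 and 106 normalised counts in NC and 56.6 and 65.3 with siMEX3A_1, so the groups did not overlap. Its log2 change was -0.71 (SE 0.17, adjusted p = 0.00655), and DESeq2 gave it an adjusted p of 0.0593. In the authors' deposited table the same gene has a log2 change of -0.71 and an adjusted p of 0.137. The 7 markers of a renal epithelial line were read in every library, with summed counts of 73485 and 75889 in NC and 129040 and 121287 with siMEX3A_1. Lymphoid and myeloid markers summed to 81 and 76 in NC and to 18 and 24 with siMEX3A_1, with CD3E at 0 throughout. Fibroblast markers summed to 1369 and 1504 in NC and to 881 and 813 with siMEX3A_1, nearly all from COL1A1 and PDGFRB, and endothelial, red cell and neuron markers stayed at 86 counts or fewer. Mitochondrial transcripts took 11.37% and 11.54% of counts in NC and 9.94% and 9.98% with siMEX3A_1. The part of these shifts in the results was not tested. These are bulk samples, in which fewer cells of a type and less RNA per cell cannot be told apart.

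A large part of the tested transcriptome differed between siMEX3A_1 and NC, and higher and lower genes were nearly equal in number. A gene was called when edgeR's quasi-likelihood test gave a Benjamini-Hochberg adjusted p under 0.05 over all 18583 tested rows, and "rose" and "fell" are used of called genes only. By that rule 9836 rows were called, or 52.9% of those tested, with 5014 higher (27%) and 4822 lower (25.9%). The share depended on the test. At the same threshold DESeq2 called 8093 of the 18583 rows, and the authors' deposited table calls 7032 of 18856 rows with an adjusted p. Large changes leaned to the lower side. At least 2-fold changes were called in 1304 rows that rose (7.02%) and 1821 that fell (9.8%), and at least 4-fold changes in 225 (1.21%) and 534 (2.87%). The median log2 change over all tested rows was -0.01 and the median size of a change was 0.45.

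Genes of the cell cycle and DNA replication supplied much of that lean. Of the 327 tested members of a cell cycle reference list, 15 rose and 293 fell, with a median of -1.61. Outside the list 4956 of 17870 genes rose and 4479 fell, with a median of 0.00. Changes of at least 2-fold were still more often falls there, with 1276 up and 1551 down, and at 8-fold the counts were 53 and 115. Calls also followed abundance. When tested rows were cut into 4 equal groups by mean count, 8.05% rose and 10.4% fell in the lowest, below 33.6 normalised counts, and 42% rose and 31.6% fell in the highest, from 865 counts up. Protein-coding genes by RefSeq type rose in 31.6% and fell in 31.2% of 13675 cases. Long non-coding RNAs rose in 22% and fell in 10.5% of 972 cases.

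**Figure D1:**
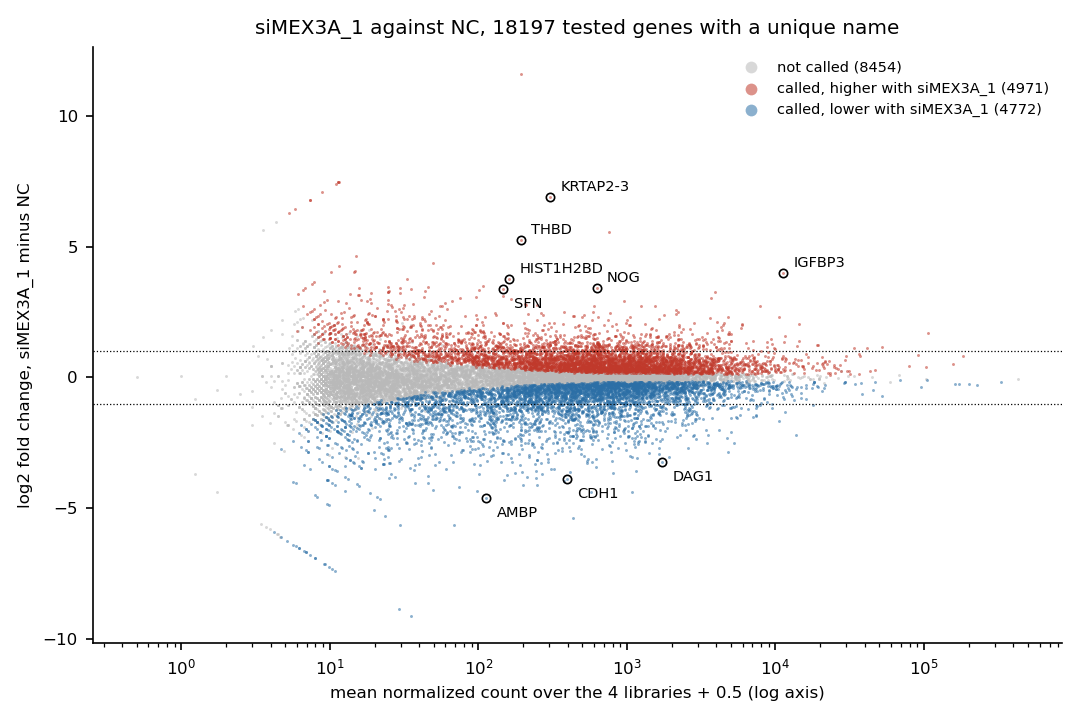
Log2 fold change (siMEX3A_1 minus NC) against the mean normalised count of the 4 libraries plus 0.5 on a log axis, for the 18197 tested genes with a unique name; red and blue points are called genes, and dotted lines mark 2-fold changes. Called genes lie on both sides of 0 except at the lowest counts, IGFBP3 and KRTAP2-3 stand far above the cloud, and AMBP and CDH1 stand far below it.

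The 30 largest changes among abundant genes with a gene symbol joined secreted factors, adhesion proteins and regulators of transcription. They were taken as the 15 largest rises and 15 largest falls with a mean of at least 100 normalised counts over the 4 libraries. Genes of the cell cycle list were left out. Rows with clone-based names, dates as names or readthrough names were left out too, and some clone-named rows changed by as much. The 30 were picked by size, so their sizes are a description. Rises ran from 2.77 for KLF4 to 6.89 for KRTAP2-3 on the log2 scale, and falls from -3.21 for APOBEC3B to -4.62 for AMBP. By choice, both siMEX3A_1 libraries of each of the 30 lay outside the range of both NC libraries.

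Among the rises, IGFBP3, a carrier that binds insulin-like growth factors outside the cell, had 1380 and 1292 normalised counts in NC and 21623 and 20896 with siMEX3A_1 (3.99, SE 0.05, adjusted p = 7.95e-10). THBD encodes thrombomodulin, the cell-surface anticoagulant, and went from 6.95 and 12.7 to 367 and 385 (5.24, SE 0.21, adjusted p = 5.46e-08). ANGPTL4, a secreted inhibitor of lipoprotein lipase, had 732 and 869 in NC and 6732 and 6345 with siMEX3A_1 (3.03, SE 0.08, adjusted p = 1.17e-08). In these 3 genes both siMEX3A_1 libraries lay far above both NC libraries. Regulators of transcription among the rises were FOXP2, a forkhead factor, at 37.7 and 36.1 in NC and 283 and 303 with siMEX3A_1. ZNF703, a zinc finger co-repressor, had 221 and 216 in NC and 1708 and 1647 with siMEX3A_1. SNAI2, the Slug repressor of epithelial genes, had 59.6 and 66.3 in NC and 399 and 469 with siMEX3A_1. The kinase SIK1 had 751 and 710 in NC and 6889 and 7341 with siMEX3A_1. MIR503HG, the host transcript of a microRNA cluster, went from 27.8 and 33.2 to 282 and 242. KRTAP2-3, HIST1H2BD, HIST1H4H and AKR1C1 have close relatives in the genome, and the authors' counting may have split reads among copies, so their values are less certain.

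Among the falls, DAG1, which encodes the dystroglycan receptor that ties cells to laminin, had 3146 and 3072 normalised counts in NC and 334 and 321 with siMEX3A_1 (-3.25, SE 0.07, adjusted p = 5.04e-09). LARGE2, a glycosyltransferase that extends the laminin-binding sugar of dystroglycan, stood just outside the 15 falls and had 211 and 199 in NC and 19.2 and 25.5 with siMEX3A_1 (-3.19, SE 0.20, adjusted p = 9.68e-07). The receptor and the enzyme were therefore both lower in each siMEX3A_1 library. TRPV4, a calcium-permeable channel, had 353 and 335 in NC and 31.3 and 35.7 with siMEX3A_1. NCALD, the calcium sensor neurocalcin delta, had 538 and 525 in NC and 53.6 and 59.2 with siMEX3A_1. APOBEC3B, a cytidine deaminase that edits single-stranded DNA, had 1453 and 1427 in NC and 148 and 163 with siMEX3A_1. GALNT6, which starts mucin-type O-glycans, had 319 and 287 in NC and 31.3 and 32.6 with siMEX3A_1. The metalloprotease ADAM8 had 349 and 380 in NC and 32.4 and 27.5 with siMEX3A_1. In each of these genes both siMEX3A_1 libraries were far below both NC libraries.

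**Figure D2:**
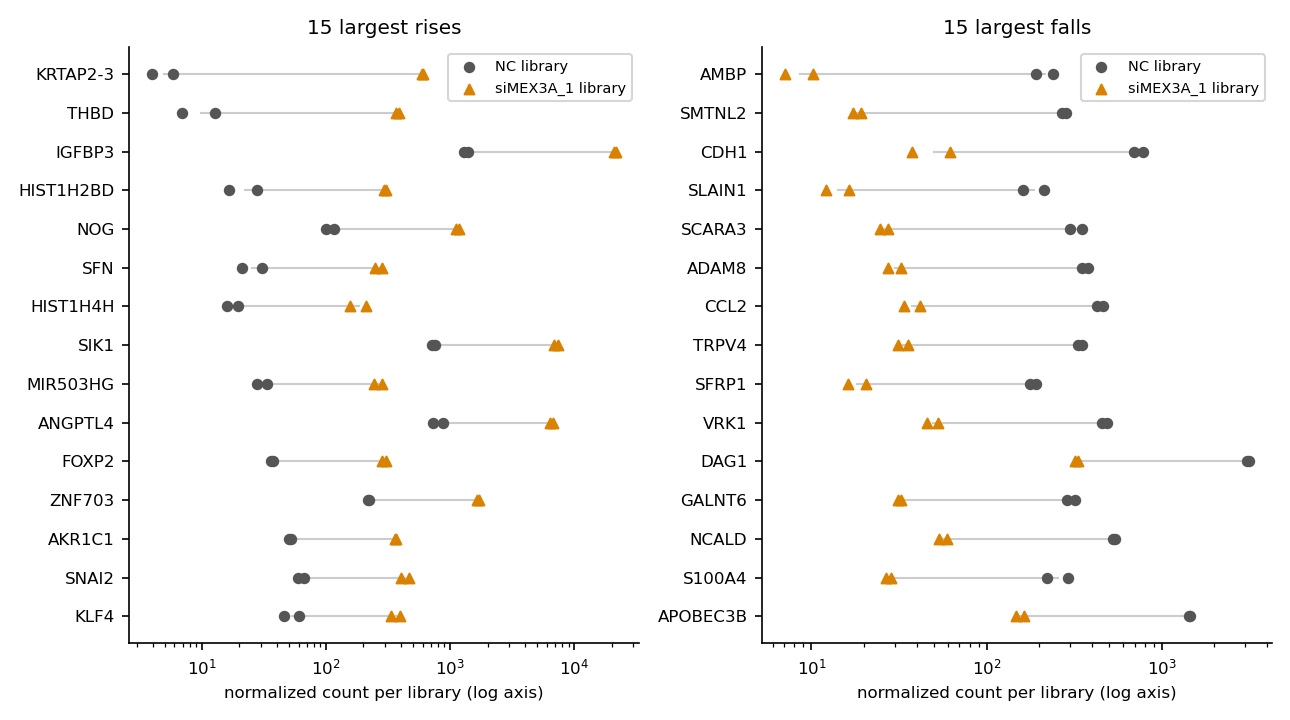
Normalised counts per library on a log axis for the 15 largest rises (left) and 15 largest falls (right), with NC libraries as grey circles, siMEX3A_1 libraries as orange triangles and a line joining the group means. In all 30 genes the groups are separate, from IGFBP3 at 1292 to 1380 against 20896 to 21623 down to AMBP at 191 to 240 against 7.08 to 10.2.

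Genes were then read in 76 families by role, each described by how many of its tested members were called against the 27% and 25.9% of all tested rows. Those shares are not matched for abundance, and in the highest of the 4 count groups 42% rose and 31.6% fell. A family of abundant genes is therefore not set apart by shares near the latter. The families with the highest shares of falls were the nuclear pore and transport genes, the enzymes of fatty acid synthesis, the mitochondrially encoded mRNAs and the splicing genes. The highest shares of rises were in endoplasmic reticulum folding, plasminogen and coagulation regulators, AP-1 and immediate early genes, and glycolysis. No test was made on the families, and members named in the text beyond the largest changes and the up to 4 lowest p-values of a family were chosen after their values were seen.

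**Figure D3:**
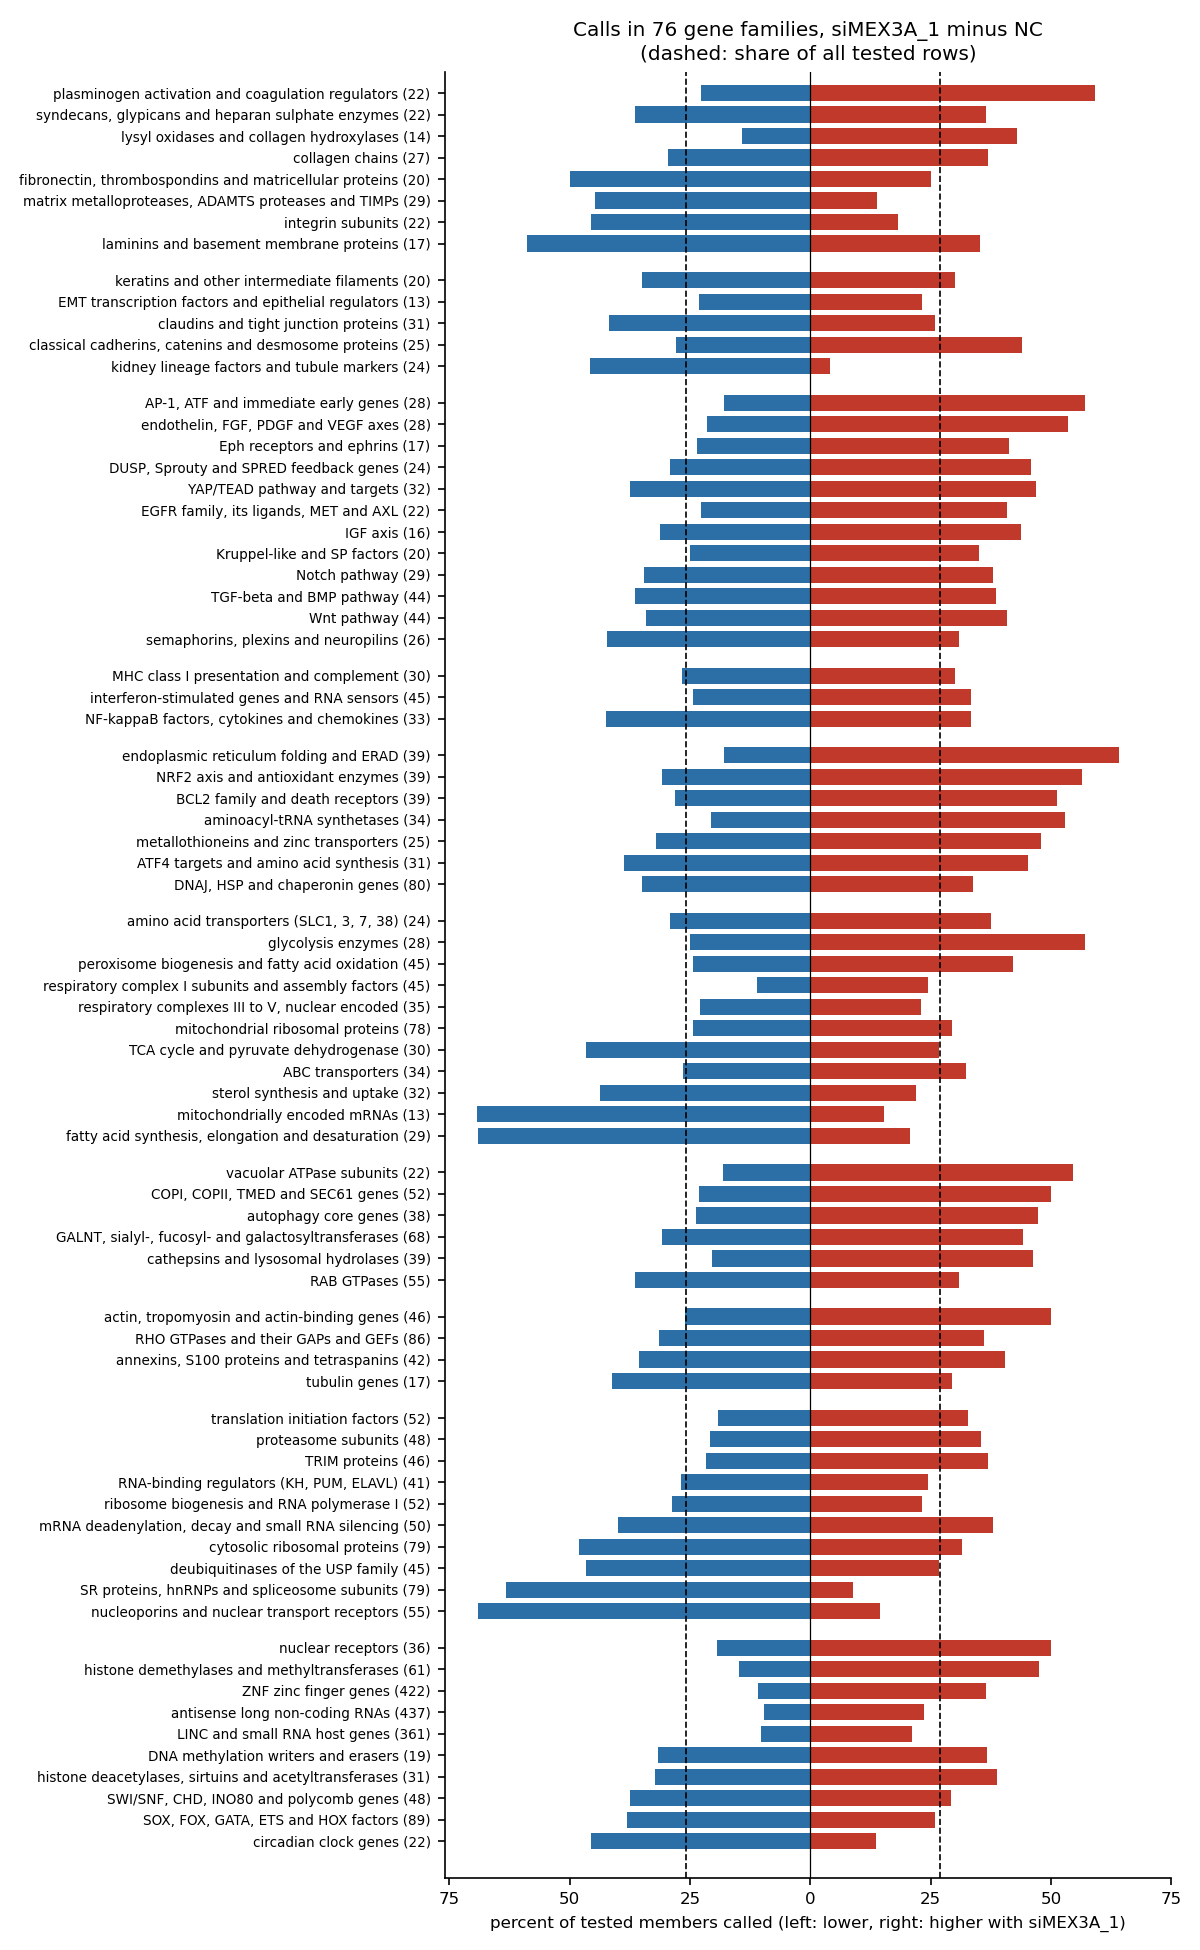
Percent of tested members called in 76 families (number tested in brackets), with falls to the left and rises to the right; dashed lines give the shares over all tested rows, 25.9% and 27%. Splicing genes and nucleoporins reach far to the left and barely to the right, and endoplasmic reticulum folding genes reach far to the right.

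Splicing genes fell widely and by small amounts. Of 79 tested SR proteins, hnRNPs and spliceosome subunits, 7 rose and 50 fell, with a median log2 change of -0.31, and only 3 fell by 2-fold or more. HNRNPA3, an hnRNP that packages nascent transcripts, had 10932 and 10771 normalised counts in NC and 3923 and 3897 with siMEX3A_1 (-1.47, SE 0.05, adjusted p = 2.39e-08). HNRNPF, which binds G-rich splicing signals, had 6844 and 6832 in NC and 3071 and 3056 with siMEX3A_1 (-1.16, SE 0.05, adjusted p = 5.57e-08). SRSF3, an SR protein that promotes exon inclusion, had 4895 and 4901 in NC and 2726 and 2650 with siMEX3A_1 (-0.87, SE 0.05, adjusted p = 5.91e-07). In all 3 genes the siMEX3A_1 pair lay well below the NC pair. The members that rose included SF3B2, a branch-site recognition subunit (0.61), and HNRNPA1 (0.27).

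Nuclear pore and transport genes fell more deeply. Of 55 tested nucleoporins and transport receptors 8 rose and 38 fell, 9 of them by 2-fold or more, with a median of -0.42. The count of rises dropped to 5 when any of the 4 libraries was left out. NDC1, the membrane anchor of the pore, had 2137 and 1907 normalised counts in NC and 349 and 397 with siMEX3A_1 (-2.44, SE 0.09, adjusted p = 3.78e-08). NUP43, of the outer ring, had 929 and 939 in NC and 197 and 188 with siMEX3A_1 (-2.28, SE 0.07, adjusted p = 1.87e-08). IPO5, an importin that carries ribosomal proteins, had 4999 and 4812 in NC and 1644 and 1615 with siMEX3A_1 (-1.59, SE 0.05, adjusted p = 2.54e-08). NUP160 was also lower (-2.09), as was the main exportin XPO1 (-0.52). POM121, which has a near-identical copy and is therefore less certain (0.56), and the SR-protein importin TNPO3 (0.56) rose. Pore subunits and receptors were thus on the same side in most cases, with no group overlap in NDC1, NUP43 and IPO5.

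Genes of mRNA decay and the RNA-binding regulators around MEX3A went both ways. Of 50 tested decay and silencing genes 19 rose and 20 fell, and 6 of the rises were 2-fold or more. EDC3, an enhancer of decapping, had 418 and 425 normalised counts in NC and 905 and 906 with siMEX3A_1 (1.10, SE 0.06, adjusted p = 5.61e-07). UPF2, a nonsense-mediated decay factor, had 630 and 652 in NC and 1304 and 1296 with siMEX3A_1 (1.02, SE 0.06, adjusted p = 8.69e-07). ZFP36, which brings AU-rich mRNAs to deadenylases, rose (1.48), while the decapping enzyme DCP2 (-0.82), the exonuclease XRN1 (-0.85) and DICER1 (-0.58) fell.

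Within the 41 tested KH-domain and related RNA-binding genes, 10 rose and 11 fell. PCBP1, a KH protein that binds poly(C) tracts, had 5410 and 5496 normalised counts in NC and 1360 and 1380 with siMEX3A_1 (-1.99, SE 0.05, adjusted p = 8.06e-09). Its relative PCBP2 went the other way, from 13010 and 12992 to 17936 and 16974 (0.43, SE 0.04, adjusted p = 1.89e-05). The 3 other MEX3 genes had log2 changes of 0.13 for MEX3B, -0.11 for MEX3C and 0.85 for MEX3D, of which only MEX3D was called (adjusted p = 3.34e-05). MEX3D had 248 and 232 in NC and 425 and 441 with siMEX3A_1. ELAVL1, which stabilises AU-rich mRNAs, fell by 0.55 on the log2 scale. MSI1 had 12.9 and 14.6 in NC and 0 in both siMEX3A_1 libraries.

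The translation apparatus shifted by small amounts in both directions. Of 79 tested cytosolic ribosomal protein genes 25 rose and 38 fell, with a median of -0.13. RPS3A had 10683 and 12218 normalised counts in NC and 6203 and 5936 with siMEX3A_1 (-0.92, SE 0.06, adjusted p = 2.05e-06), the largest fall of the set. RPL28 had 7206 and 7303 in NC and 12185 and 11488 with siMEX3A_1 (0.71, SE 0.05, adjusted p = 1.26e-06), the largest rise. Both genes had separate groups. Ribosomal protein genes have many processed copies, as do CYCS, HNRNPA1, HNRNPA3 and FTL, so the values of these genes depend on how the authors' counting shared reads.

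Initiation factors rose in 17 and fell in 10 of 52 tested genes, and the fall count became 16 when libraries were scaled by their totals alone. EIF3F, a subunit of the scaffold initiation complex, had 1601 and 1633 normalised counts in NC and 3807 and 3651 with siMEX3A_1 (1.21, SE 0.06, adjusted p = 1.90e-07). EIF4EBP2, which holds the cap-binding protein inactive, had 3772 and 3607 in NC and 1392 and 1356 with siMEX3A_1 (-1.42, SE 0.06, adjusted p = 6.29e-08). The cap-binding protein EIF4E itself fell as well, from 1438 and 1485 to 734 and 753 (-0.97, SE 0.07, adjusted p = 1.60e-06). Thus the cap-binding factor and its repressor were both lower. Aminoacyl-tRNA synthetases rose in 18 and fell in 7 of 34 tested genes, with AARS, the enzyme for alanine, at 5031 and 5489 in NC and 9224 and 8448 with siMEX3A_1. Ribosome biogenesis genes were nearly balanced, with 12 of 52 up, 15 down and a median of 0.00.

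Mitochondrial genes showed small shifts with a few large exceptions. Of the 13 mitochondrially encoded mRNAs 9 fell and 2 rose, with a median of -0.19. MT-ND2 had 106599 and 107573 normalised counts in NC and 81694 and 84364 with siMEX3A_1 (-0.37, SE 0.04, adjusted p = 2.48e-05). MT-ND5 (0.40) and MT-ND6 (0.52) rose, and MT-ND6 is the mRNA read from the opposite strand. Complex I subunits and assembly factors rose in 11 and fell in 5 of 45 tested genes, and the fall count depended on the setting. It was 2 without NC replicate 2 or with DESeq2, 3 without siMEX3A_1 replicate 2, and 10 with scaling by library totals alone or with a mean of at least 50 counts. In complexes III to V, 8 of 35 nuclear genes rose and 8 fell. The rise count was 3 without NC replicate 1 and 4 without siMEX3A_1 replicate 1, and the fall count was 5 without NC replicate 2 or siMEX3A_1 replicate 2.

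The exceptions were large. CYCS, which encodes cytochrome c, the electron carrier that also triggers caspase activation, had 2703 and 2686 normalised counts in NC and 663 and 667 with siMEX3A_1 (-2.02, SE 0.07, adjusted p = 2.52e-08). MRPS10, of the small mitochondrial ribosomal subunit, had 993 and 1014 in NC and 299 and 298 with siMEX3A_1 (-1.75, SE 0.07, adjusted p = 4.15e-08). PDHX, the subunit that holds the pyruvate dehydrogenase complex together, had 609 and 562 in NC and 149 and 164 with siMEX3A_1 (-1.90, SE 0.09, adjusted p = 1.48e-07). Each was the largest fall of its family, followed by ATP5E (-1.11), MRPL12 (-1.43) and IDH3B (-1.65). Of 78 mitochondrial ribosomal protein genes 23 rose and 19 fell, and of 30 genes of the citric acid cycle and pyruvate dehydrogenase 8 rose and 14 fell.

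Endoplasmic reticulum folding genes rose in most cases. Of 39 tested chaperones, disulphide enzymes and degradation factors of this compartment 25 rose and 7 fell, with a median of 0.41, but only 3 rose by 2-fold or more. These genes are the classical targets of the unfolded protein response, in which the factors ATF6 and XBP1 act on a promoter element called ERSE. The element, CCAAT and CCACG with 9 bases of any kind between them, was searched on both strands of RefSeq promoter windows, from 250 bases before to 50 bases after each gene's start on GRCh38.p14. It was present in 7 of the 35 family members with a promoter in the set, or 20%, against 22 of all 27305 promoters, or 0.0806%. Of the 7 genes 5 rose, ERO1B fell and CANX was not called. Among the 28 members without the element 18 rose and 5 fell, and the medians were 0.55 with it and 0.41 without it. A match describes the letters in the window and is neither a proven site nor a cause. The promoters of 3 members that rose and of ERO1B, which fell, are printed in gene direction to show the element, whose match is in capitals.
HSPA5, chr9:125241294-125241593, minus strand, first base of the match at -66: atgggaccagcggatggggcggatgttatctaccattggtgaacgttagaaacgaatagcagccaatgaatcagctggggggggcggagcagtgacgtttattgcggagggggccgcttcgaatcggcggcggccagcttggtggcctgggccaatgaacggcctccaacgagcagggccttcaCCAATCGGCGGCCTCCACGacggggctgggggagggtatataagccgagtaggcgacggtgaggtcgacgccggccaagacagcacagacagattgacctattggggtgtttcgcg
XBP1, chr22:28800520-28800819, minus strand, first base of the match at -52: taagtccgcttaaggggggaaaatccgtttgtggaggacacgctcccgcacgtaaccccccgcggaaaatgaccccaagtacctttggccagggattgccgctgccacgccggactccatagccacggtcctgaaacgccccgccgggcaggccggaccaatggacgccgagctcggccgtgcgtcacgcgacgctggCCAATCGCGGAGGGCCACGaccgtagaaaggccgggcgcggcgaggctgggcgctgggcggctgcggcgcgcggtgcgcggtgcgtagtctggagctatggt
CRELD2, chr22:49918384-49918683, plus strand, match on the opposite strand from -80: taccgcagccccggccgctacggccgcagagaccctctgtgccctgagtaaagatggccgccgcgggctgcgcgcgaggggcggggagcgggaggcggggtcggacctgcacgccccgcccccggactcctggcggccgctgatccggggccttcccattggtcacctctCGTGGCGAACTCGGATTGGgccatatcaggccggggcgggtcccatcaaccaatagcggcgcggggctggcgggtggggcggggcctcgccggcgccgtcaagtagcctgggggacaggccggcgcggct
ERO1B, chr1:236281909-236282208, minus strand, match on the opposite strand from -243: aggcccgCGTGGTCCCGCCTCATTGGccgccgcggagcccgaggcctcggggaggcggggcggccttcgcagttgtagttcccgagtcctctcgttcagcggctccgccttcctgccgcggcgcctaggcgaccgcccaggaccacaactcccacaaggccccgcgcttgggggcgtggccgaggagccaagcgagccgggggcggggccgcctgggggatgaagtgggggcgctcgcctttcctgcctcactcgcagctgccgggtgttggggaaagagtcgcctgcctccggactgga

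HSPA5, the main chaperone BiP, had 12979 and 13704 normalised counts in NC and 19597 and 19810 with siMEX3A_1 (0.56, SE 0.04, adjusted p = 3.39e-06). XBP1, the transcription factor spliced by the sensor IRE1, had 850 and 907 in NC and 1644 and 1711 with siMEX3A_1 (0.93, SE 0.07, adjusted p = 2.50e-06). CRELD2, a secreted folding factor, had 161 and 191 in NC and 377 and 352 with siMEX3A_1 (1.05, SE 0.11, adjusted p = 2.88e-05). In these 3 genes both siMEX3A_1 libraries were above both NC libraries. ERO1B, an oxidase that drives disulphide formation, had 233 and 216 in NC and 141 and 150 with siMEX3A_1 (-0.63, SE 0.12, adjusted p = 0.00139), below both NC libraries. Its paralog ERO1A had 1672 and 1687 in NC and 4130 and 4191 with siMEX3A_1 (1.31, SE 0.05, adjusted p = 7.28e-08). The paralogs thus moved in opposite directions. HERPUD1, of the degradation complex, had 1268 and 1327 in NC and 2997 and 3201 with siMEX3A_1 (1.26, SE 0.07, adjusted p = 3.23e-07). CANX, the lectin chaperone calnexin, had a change of -0.03 and DERL1, of the retrotranslocation channel, fell by 1.00 on the log2 scale.

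Genes of transport into and out of this compartment rose more often than they fell. Of 52 COPI, COPII, TMED and SEC61 genes 26 rose, 12 fell and 14 were not called, with a median of 0.20. SEC23B, the inner COPII coat subunit, had 2094 and 1952 normalised counts in NC and 360 and 342 with siMEX3A_1 (-2.53, SE 0.07, adjusted p = 1.17e-08). SEC13, of the outer COPII coat and the nuclear pore, had 1100 and 1029 in NC and 323 and 358 with siMEX3A_1 (-1.64, SE 0.07, adjusted p = 1.12e-07). The paralog SEC23A was not called (0.15), while SEC24D (0.76), SEC31A (0.66) and the cargo receptor TMED9 (1.00) rose. Glycosyltransferases rose in 30 and fell in 21 of 68 tested genes. RAB GTPases, which direct vesicle traffic, rose in 17 and fell in 20 of 55, with RAB1A of the early secretory route at 3010 and 3052 in NC and 5774 and 5700 with siMEX3A_1 (0.92, SE 0.05, adjusted p = 3.98e-07). RAB27B, of secretory granules, had 266 and 236 in NC and 53.6 and 69.4 with siMEX3A_1 (-2.03, SE 0.17, adjusted p = 5.59e-06).

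Proton pump genes of acidic organelles were higher in most cases. Of 22 vacuolar ATPase subunits 12 rose and 4 fell, with a median of 0.32. ATP6V1F had 952 and 1040 normalised counts in NC and 2987 and 2863 with siMEX3A_1 (1.55, SE 0.07, adjusted p = 8.22e-08). ATP6V1B2, a nucleotide-binding subunit, had 1950 and 1890 in NC and 4119 and 4145 with siMEX3A_1 (1.11, SE 0.05, adjusted p = 1.69e-07). Both subunits belong to the V1 sector of the pump, which faces the cytosol, and had separate groups. Hydrolases and other proteins of the same organelles, such as LAMP1, rose in 18 and fell in 8 of 39 tested genes. TPP1 had 2271 and 2212 in NC and 5960 and 5862 with siMEX3A_1. ARSB, which cleaves sulphate from glycosaminoglycans, went from 698 and 628 to 204 and 240 (-1.58, SE 0.10, adjusted p = 1.06e-06). The letters TCACGTGA, the core of the CLEAR element, were in 3 of 25 matched promoters of this set (12%) and in 1.04% of all. Of the 3 genes CTSA and LAMP1 rose and GAA was not called, and of the 22 without the letters 11 rose and 7 fell.

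Stress pathways were split by branch. Among 31 targets of ATF4 and amino acid synthesis genes 14 rose and 12 fell. Its signalling targets rose. TRIB3, a pseudokinase, had 393 and 407 normalised counts in NC and 2674 and 2665 with siMEX3A_1 (2.74, SE 0.07, adjusted p = 8.06e-09). DDIT3, the factor CHOP, had 405 and 427 in NC and 1661 and 1667 with siMEX3A_1 (2.00, SE 0.07, adjusted p = 4.15e-08). PPP1R15A, which directs dephosphorylation of EIF2S1, had 559 and 579 in NC and 3046 and 2868 with siMEX3A_1 (2.38, SE 0.07, adjusted p = 1.17e-08). The enzymes of serine synthesis went the other way. PHGDH, the first of that route, had 1894 and 1901 in NC and 568 and 489 with siMEX3A_1 (-1.84, SE 0.08, adjusted p = 8.68e-08), and PSAT1, the next, had 4956 and 4677 in NC and 2772 and 2760 with siMEX3A_1 (-0.80, SE 0.05, adjusted p = 1.59e-06). ASS1, of arginine synthesis, fell from 186 and 184 to 58.6 and 49. None of these 6 genes had overlapping groups.

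Antioxidant genes of the NRF2 axis rose in 22 and fell in 12 of 39. HMOX1, haem oxygenase, had 1493 and 1714 normalised counts in NC and 7908 and 8135 with siMEX3A_1 (2.32, SE 0.07, adjusted p = 1.72e-08). FTL, the ferritin light chain, had 61913 and 66591 in NC and 120092 and 113652 with siMEX3A_1 (0.86, SE 0.04, adjusted p = 1.55e-07). GSR, glutathione reductase, had 3739 and 3724 in NC and 1595 and 1636 with siMEX3A_1 (-1.21, SE 0.05, adjusted p = 1.17e-07). HMOX1 and FTL thus rose while GSR and the NADPH-producing enzyme PGD (-1.03) fell, as did NFE2L2, the NRF2 gene (-0.38). Other members of the axis were higher, with AKR1C1 at 2.80 and ME1 at 0.89, so these falls were not general. DNAJ, HSP and chaperonin genes, a set taken by gene name and not by compartment, were split with 27 of 80 up and 28 down. DNAJB2, a co-chaperone, had 629 and 687 in NC and 3837 and 3661 with siMEX3A_1 (2.51, SE 0.07, adjusted p = 1.17e-08). HSP90AA1 had 23243 and 25175 in NC and 11700 and 11650 with siMEX3A_1 (-1.05, SE 0.05, adjusted p = 9.19e-08), and the chaperonin subunits CCT7 (-1.11) and CCT4 (-0.80) were lower as well.

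Lipid synthesis genes fell more often than they rose. Of 29 tested genes of fatty acid synthesis, elongation and desaturation 6 rose and 20 fell, 7 of them by 2-fold or more, with a median of -0.47. ACSS2, which makes acetyl-CoA from acetate, had 802 and 841 normalised counts in NC and 173 and 142 with siMEX3A_1 (-2.38, SE 0.09, adjusted p = 4.83e-08). FADS2, the first desaturase of polyunsaturated fatty acids, had 1669 and 1709 in NC and 569 and 575 with siMEX3A_1 (-1.56, SE 0.06, adjusted p = 6.88e-08). FASN, fatty acid synthase, had 17733 and 18016 in NC and 11795 and 11807 with siMEX3A_1 (-0.60, SE 0.06, adjusted p = 1.23e-05). The 3 enzymes were lower in both siMEX3A_1 libraries. SCD (0.33), which makes monounsaturated fatty acids, and ACACA (0.42), which makes malonyl-CoA, rose. PLIN2, the coat protein of lipid droplets, had 1942 and 1938 in NC and 6972 and 6555 with siMEX3A_1 (1.80, SE 0.06, adjusted p = 2.75e-08).

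Sterol genes followed a like split, with 7 of 32 up and 14 down. The count of rises was 4 without NC replicate 2. IDI1, an isomerase of the isoprenoid steps, had 1806 and 1951 normalised counts in NC and 501 and 536 with siMEX3A_1 (-1.86, SE 0.07, adjusted p = 4.98e-08). FDPS, which makes farnesyl diphosphate for that route, had 4449 and 4697 in NC and 1694 and 1430 with siMEX3A_1 (-1.55, SE 0.08, adjusted p = 2.19e-07). Both enzymes were lower in each siMEX3A_1 library. SQLE (-0.12) and INSIG1 (0.02) were not called. The export pump ABCA1 rose from 1701 and 1443 to 3296 and 4138 (1.24, SE 0.11, adjusted p = 9.40e-06). Fatty acid oxidation and peroxisome genes rose in 19 and fell in 11 of 45, with ECI1, an isomerase of that route, at 437 and 446 in NC and 1066 and 1086 with siMEX3A_1. In glycolysis 16 of 28 rose and 7 fell, HK2 (2.02) and PFKFB3 (1.25) among the former and PGAM1 (-1.15) and ENO1 (-0.70) among the latter.

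**Figure D4:**
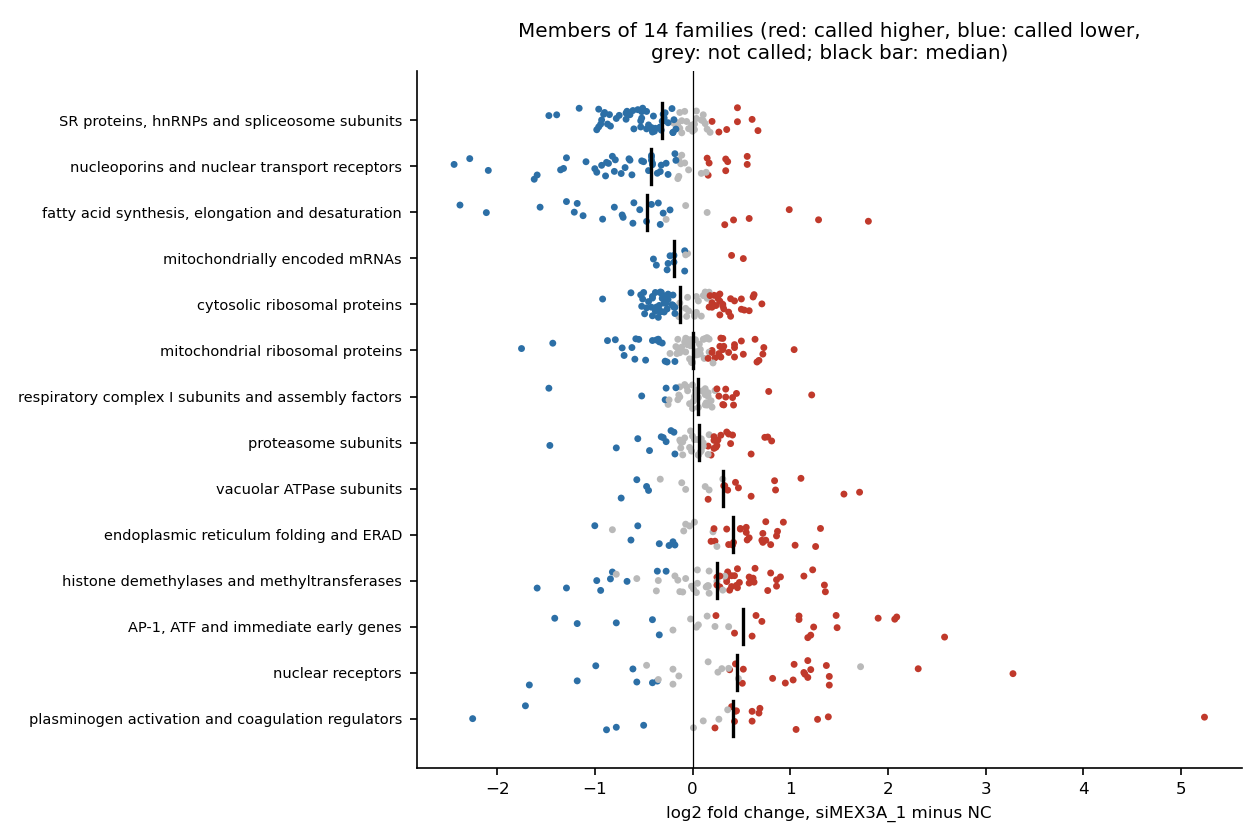
Log2 fold changes (siMEX3A_1 minus NC) of every tested member of 14 families, with called rises in red, called falls in blue, uncalled members in grey and a black bar at the median. Splicing and nuclear pore genes lie mostly left of 0 with medians of -0.31 and -0.42, endoplasmic reticulum folding genes mostly right with a median of 0.41, and THBD stands alone at 5.24 among the coagulation regulators.

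Integrin and basement membrane genes fell more often than they rose, but not every set of extracellular matrix genes did. Of 22 integrin subunits 4 rose and 10 fell, with a median of -0.59, and of 17 laminins and basement membrane proteins 6 rose and 10 fell, with a median of -0.68. ITGB2, a leukocyte-type beta subunit, had 1560 and 1635 normalised counts in NC and 903 and 897 with siMEX3A_1 (-0.83, SE 0.06, adjusted p = 3.02e-06). ITGB4, which anchors hemidesmosomes, had 524 and 485 in NC and 1004 and 971 with siMEX3A_1 (0.97, SE 0.07, adjusted p = 1.80e-06). ITGB6, which activates latent TGF-beta, had 827 and 779 in NC and 1521 and 1834 with siMEX3A_1 (1.06, SE 0.09, adjusted p = 6.95e-06). The epithelial beta subunits were thus above NC and ITGB2 below it. LAMA5, a laminin chain of mature basement membrane, had 3054 and 2928 in NC and 1149 and 1142 with siMEX3A_1 (-1.38, SE 0.07, adjusted p = 1.91e-07). AGRN, agrin, had 8010 and 8030 in NC and 14507 and 14222 with siMEX3A_1 (0.84, SE 0.05, adjusted p = 4.15e-07).

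Matrix glycoproteins included genes with opposite changes. FN1, fibronectin, had 52096 and 46532 normalised counts in NC and 154640 and 170664 with siMEX3A_1 (1.72, SE 0.06, adjusted p = 2.63e-08). SPARC, a collagen-binding matricellular protein, had 23071 and 22340 in NC and 4921 and 4873 with siMEX3A_1 (-2.21, SE 0.04, adjusted p = 4.98e-09). Fibronectin rose and SPARC fell in every library pair, within a family of 20 in which 5 rose and 10 fell. Collagen chains were balanced, with 10 of 27 up and 8 down. COL4A1, of basement membrane collagen, fell from 18494 and 16127 to 8889 and 10065 (-0.87, SE 0.07, adjusted p = 7.08e-06), and COL18A1 rose from 6697 and 6748 to 12924 and 12533 (0.92, SE 0.06, adjusted p = 8.10e-07). Lysyl oxidases and collagen hydroxylases rose in 6 and fell in 2 of 14 tested genes. Among them PLOD2, which hydroxylates collagen lysines, rose from 2814 and 2584 to 5690 and 6110 (1.13, SE 0.06, adjusted p = 5.39e-07). Syndecans, glypicans and heparan sulphate enzymes rose in 8 and fell in 8 of 22.

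Proteases and their inhibitors differed by class. Of 29 matrix metalloproteases, ADAMTS proteases and TIMPs 4 rose and 13 fell, 8 of the falls by 2-fold or more. ADAMTS14, which trims procollagen, had 199 and 229 normalised counts in NC and 26.3 and 26.5 with siMEX3A_1 (-3.01, SE 0.19, adjusted p = 9.78e-07). ADAMTS1, which cleaves proteoglycans, had 3772 and 3398 in NC and 8425 and 9551 with siMEX3A_1 (1.33, SE 0.07, adjusted p = 4.10e-07). In the plasminogen and coagulation set 13 of 22 rose and 5 fell, with a median of 0.42. The clotting inhibitors THBD (5.24), TFPI2 (1.28), PROS1 (0.68) and TFPI (0.61) all rose, and so did tissue factor, F3 (0.69). In the lytic arm PLAT, tissue plasminogen activator, had 796 and 840 in NC and 263 and 237 with siMEX3A_1 (-1.71, SE 0.08, adjusted p = 1.12e-07), while PLAU, urokinase, rose (0.44). F2RL1, a protease-activated receptor, had 729 and 712 in NC and 148 and 156 with siMEX3A_1.

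Junction genes were lower in part. Of 31 claudins and tight junction genes 8 rose and 13 fell, and 1 rose and 7 fell by 2-fold or more. CLDN1 had 20792 and 20108 normalised counts in NC and 11233 and 12047 with siMEX3A_1 (-0.81, SE 0.05, adjusted p = 5.61e-07). PRKCI, the polarity kinase, had 4072 and 3615 in NC and 1074 and 1105 with siMEX3A_1 (-1.82, SE 0.07, adjusted p = 4.98e-08). CDH1, E-cadherin, had 784 and 693 in NC and 37.4 and 62.2 with siMEX3A_1 (-3.89, SE 0.19, adjusted p = 1.75e-07). CDH2, N-cadherin, had 3013 and 3022 in NC and 4333 and 4842 with siMEX3A_1 (0.60, SE 0.06, adjusted p = 2.90e-05). E-cadherin was thus below and N-cadherin above NC in both libraries, and in the whole cadherin, catenin and desmosome set 11 of 25 rose and 7 fell. Of the 13 EMT regulators tested 3 rose (SNAI2, SNAI1 and ZEB1) and 3 fell (SPINT1, GRHL1 and TWIST2). Keratins were split, with KRT8 (1.23), KRT18 (0.51) and KRT19 (1.37) up and KRT7 (-1.88) down, and vimentin, VIM, rose by 1.16.

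Kidney genes were mostly lower or uncalled. Of 24 lineage factors and tubule markers 1 rose and 11 fell, 7 of them by 2-fold or more, with a median of -0.34. PAX8, the lineage factor of renal carcinoma, had 15228 and 16114 normalised counts in NC and 12358 and 12000 with siMEX3A_1 (-0.36, SE 0.05, adjusted p = 2.39e-04). CDH16, kidney-specific cadherin, had 282 and 279 in NC and 48.5 and 46.9 with siMEX3A_1 (-2.55, SE 0.14, adjusted p = 4.75e-07). CA2, a carbonic anhydrase of the tubule, had 158 and 141 in NC and 24.3 and 30.6 with siMEX3A_1 (-2.44, SE 0.19, adjusted p = 4.13e-06). LHX1, a factor of the early nephron, had 252 and 245 in NC and 815 and 862 with siMEX3A_1 (1.75, SE 0.08, adjusted p = 9.35e-08), the only rise. PAX8 thus fell by a smaller amount than the tubule genes CDH16 and CA2.

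Cytoskeletal genes rose more than they fell in the actin set, with 23 of 46 up and 12 down. FLNC, filamin C, had 5855 and 5447 normalised counts in NC and 23077 and 23591 with siMEX3A_1 (2.05, SE 0.05, adjusted p = 1.07e-08). FLNC was higher in both siMEX3A_1 libraries, and FLNA was not called (0.06). MYH9, the non-muscle myosin heavy chain, rose from 26256 and 25222 to 47842 and 46854 (0.88, SE 0.04, adjusted p = 8.43e-08), while MYH10 fell (-0.78). Tubulins were split, with TUBA4A at 1754 and 1824 in NC and 6915 and 6762 with siMEX3A_1 (1.93, SE 0.05, adjusted p = 1.17e-08) and TUBB6 at 2379 and 2383 in NC and 1042 and 1068 with siMEX3A_1 (-1.17, SE 0.06, adjusted p = 2.16e-07).

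Immediate early genes rose more often than they fell. Of 28 AP-1, ATF and related factors 16 rose and 5 fell, 11 of the rises and 2 of the falls by 2-fold or more, with a median of 0.52. JUN had 1057 and 1101 normalised counts in NC and 4380 and 4809 with siMEX3A_1 (2.09, SE 0.07, adjusted p = 2.49e-08). ATF3, a stress-induced repressor, had 603 and 624 in NC and 3574 and 3772 with siMEX3A_1 (2.58, SE 0.06, adjusted p = 8.06e-09). FOS rose from 17.9 and 12.7 to 67.7 and 61.2 (2.07, SE 0.28, adjusted p = 1.73e-04). EGR1 (-0.78) and NR4A1 (-1.18), also immediate early genes, fell. The AP-1 subunits were thus above NC while these other early genes were below it.

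The feedback phosphatases of MAP kinases moved apart. DUSP5, a nuclear ERK phosphatase, had 1567 and 1846 normalised counts in NC and 7254 and 7335 with siMEX3A_1 (2.10, SE 0.08, adjusted p = 3.70e-08). DUSP6, its cytoplasmic counterpart, had 470 and 436 in NC and 111 and 110 with siMEX3A_1 (-2.03, SE 0.10, adjusted p = 1.94e-07). In the whole set of DUSP, Sprouty and SPRED genes 11 of 24 rose and 7 fell. Of the EGF receptor and MET set 9 of 22 rose and 5 fell. Its ligands AREG and EREG rose, AREG from 120 and 105 to 629 and 650 (2.50, SE 0.09, adjusted p = 3.78e-08) and EREG from 606 and 536 to 2381 and 3063 (2.25, SE 0.12, adjusted p = 2.81e-07). The receptors EGFR (0.24, adjusted p = 0.103) and MET (0.14, adjusted p = 0.195) were not called. Ligands were therefore above NC in both libraries, and the groups overlapped for EGFR.

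TGF-beta and BMP genes rose in 17 and fell in 16 of 44. Among ligands INHBA, the activin A subunit, had 2580 and 2412 normalised counts in NC and 9087 and 9324 with siMEX3A_1 (1.88, SE 0.05, adjusted p = 1.17e-08). Among inhibitors NOG, the secreted BMP antagonist noggin, had 115 and 99.5 in NC and 1181 and 1105 with siMEX3A_1 (3.41, SE 0.11, adjusted p = 1.95e-08). Of the signal carriers SMAD5, which serves BMP receptors, fell from 1460 and 1293 to 349 and 445 (-1.79, SE 0.11, adjusted p = 5.98e-07). Among BMP targets ID2 had 610 and 643 in NC and 146 and 147 with siMEX3A_1 (-2.10, SE 0.08, adjusted p = 6.13e-08), and ID3 (-1.17) and SMAD6 (-1.92) fell, whereas ID1 rose (0.53). PMEPA1, a TGF-beta target and inhibitor, rose from 1074 and 1023 to 3847 and 3659 (1.84, SE 0.06, adjusted p = 2.49e-08). The groups did not overlap in INHBA, NOG, SMAD5, ID2 or PMEPA1.

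Wnt genes rose in 18 and fell in 15 of 44. PORCN, the enzyme that lipidates Wnt ligands, had 159 and 193 normalised counts in NC and 1019 and 1002 with siMEX3A_1 (2.52, SE 0.10, adjusted p = 6.01e-08). SFRP1, a secreted Wnt inhibitor, had 178 and 192 in NC and 16.2 and 20.4 with siMEX3A_1 (-3.33, SE 0.20, adjusted p = 7.10e-07). Of 2 target genes of the pathway, LGR5 had 37.7 and 24.4 in NC and 4.04 and 4.08 with siMEX3A_1 (-2.90, SE 0.50, adjusted p = 8.06e-04), and AXIN2 was not called (-1.21, adjusted p = 0.0613). Notch genes rose in 11 and fell in 10 of 29, and the falls were 5 without NC replicate 1. The ligand DLL1 had 53.6 and 41 in NC and 4.04 and 3.06 with siMEX3A_1 (-3.69, SE 0.45, adjusted p = 9.14e-05), and the receptor NOTCH1 had 636 and 608 in NC and 1357 and 1365 with siMEX3A_1 (1.13, SE 0.08, adjusted p = 1.56e-06). Ligand DLL1 and receptor NOTCH1 thus lay on opposite sides of NC.

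Growth factor and guidance genes added further opposite pairs. VEGFA, the vascular growth factor, had 1309 and 1178 normalised counts in NC and 5840 and 6182 with siMEX3A_1 (2.27, SE 0.07, adjusted p = 1.47e-08). EDN2, endothelin 2, had 4713 and 4544 in NC and 1001 and 999 with siMEX3A_1 (-2.21, SE 0.06, adjusted p = 1.17e-08). In the endothelin, FGF, PDGF and VEGF set 15 of 28 rose and 6 fell. In the IGF axis 7 of 16 rose and 5 fell, and the rises were 4 without NC replicate 2. Semaphorins and plexins rose in 8 and fell in 11 of 26, with SEMA6B at 670 and 657 in NC and 106 and 128 with siMEX3A_1 (-2.51, SE 0.11, adjusted p = 1.29e-07). Of the YAP and TEAD set 15 of 32 rose and 12 fell. TEAD1, the DNA-binding partner of YAP, went from 4619 and 4180 to 1310 and 1615 (-1.59, SE 0.09, adjusted p = 6.37e-07), and YAP1 from 1531 and 1351 to 597 and 726 (-1.12, SE 0.10, adjusted p = 1.09e-05). Of its targets ANKRD1 (2.34) and CYR61 (0.66) rose, and CTGF (-0.85) and AMOTL2 (-1.18) fell.

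Inflammatory genes divided between chemokine groups. Of 33 NF-kappaB factors, cytokines and chemokines 11 rose and 14 fell. CXCL8, the neutrophil attractant interleukin 8, had 165 and 161 normalised counts in NC and 779 and 939 with siMEX3A_1 (2.40, SE 0.11, adjusted p = 1.21e-07). CXCL1 had 313 and 385 in NC and 1649 and 1821 with siMEX3A_1 (2.31, SE 0.10, adjusted p = 9.19e-08). CCL2, the monocyte attractant, had 430 and 465 in NC and 41.5 and 33.7 with siMEX3A_1 (-3.57, SE 0.13, adjusted p = 3.75e-08). The neutrophil chemokines were above NC and CCL2 below it. BIRC3, an NF-kappaB target and ubiquitin ligase, fell from 2057 and 2054 to 421 and 432 (-2.27, SE 0.06, adjusted p = 1.17e-08), and the subunits RELB (-1.73) and NFKB2 (-0.80) fell.

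Interferon-stimulated genes showed no common direction. Of 45 tested 15 rose and 11 fell, with a median of 0.01, near the all-row median of -0.01. OAS3, an antiviral synthetase, had 1668 and 1507 normalised counts in NC and 661 and 729 with siMEX3A_1 (-1.19, SE 0.08, adjusted p = 1.62e-06). IFI35 had 416 and 407 in NC and 826 and 815 with siMEX3A_1 (1.00, SE 0.06, adjusted p = 1.12e-06). ISG15 (0.19) and MX1 (-0.11), markers of an interferon response, were not called. The letters TTTC and TTTC with 2 bases between them, the core of the interferon response element, were in 17 of 30 matched promoters (56.7%) and in 3.65% of all. Of the 17 genes 5 rose and 3 fell, and of the 13 without the letters 6 rose and 3 fell.

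In all 10 promoter elements were searched on both strands, each in 1 family, and the remaining 7 gave mixed shares. TGACNNNGC, the antioxidant element, was in 13.3% of NRF2 axis promoters and 13.6% of all, and TGCNCNC, the metal element, was in 57.9% of metallothionein and zinc transporter promoters and 55.2% of all. For these elements the families were near the share of all promoters. GGAATG, the TEAD site, was in 6 of 26 YAP and TEAD promoters (23.1% against 14%), and 2 of the 6 genes rose and 4 fell. Of the 20 members without it 11 rose and 6 fell. TGATGCAA, the ATF4 element, was in 3 of 24 promoters of its family (12.5% against 0.923%), with 1 gene up and 2 down. Of the 21 members without it 10 rose and 8 fell. TGANTCA, a loose form of the AP-1 site with any base in the middle, was in 5 of 17 coagulation promoters (29.4% against 7.76%). Of these genes 4 rose and 1 fell, and the match in TFPI2 reads TGAATCA. Of the 12 members without a match 7 rose and 2 fell. TCACNCCAC, a sterol element, was in 1 of 25 sterol promoters. TTTCCCGC, the E2F site, was in 27 of 274 promoters of the cell cycle list (9.85% against 1.66%), with 1 gene up and 24 down. Among the 247 members of that list without the site 13 rose and 220 fell, so most members fell with or without it. Genes with an element thus went both ways in the TEAD, ATF4 and AP-1 searches.

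Death and survival genes rose in 20 and fell in 11 of 39, and the falls were 7 without NC replicate 2 or without siMEX3A_1 replicate 1. BBC3, the killer protein PUMA, had 171 and 120 normalised counts in NC and 595 and 589 with siMEX3A_1 (2.03, SE 0.13, adjusted p = 1.37e-06). BCL2L1, which encodes the survival protein BCL-XL, had 3828 and 3877 in NC and 6868 and 6551 with siMEX3A_1 (0.80, SE 0.05, adjusted p = 6.60e-07), and BCL2 fell (-0.95). Killer and survival members thus both had genes above NC.

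Chromatin and transcription factor genes differed by family. SOX, FOX, GATA, ETS and HOX factors rose in 23 and fell in 34 of 89, 6 and 13 of them by 2-fold or more, with a median of -0.07. Of 61 histone methyltransferases and demethylases 29 rose and 9 fell, with a median of 0.25. KDM2A, a demethylase of CpG islands, had 916 and 926 normalised counts in NC and 2366 and 2330 with siMEX3A_1 (1.35, SE 0.06, adjusted p = 9.34e-08). KDM1B, a flavin-dependent demethylase, had 653 and 595 in NC and 189 and 226 with siMEX3A_1 (-1.59, SE 0.10, adjusted p = 1.03e-06). SUV39H1 (-1.29) and EZH2 (-0.94), which write repressive marks, fell. Polycomb and remodelling genes were closer to balance, with 14 of 48 up and 18 down. Of the DNA methylation set, UHRF1 (-2.24) and DNMT1 (-1.70), the maintenance pair and also members of the cell cycle list, fell, and DNMT3A was not called (-0.06).

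Zinc finger genes with ZNF names rose in 154 and fell in 46 of 422, with a median of 0.25. The falls were 26 without NC replicate 1, and DESeq2 called 101 up and 28 down. ZNF664 had 978 and 884 normalised counts in NC and 3276 and 3783 with siMEX3A_1 (1.92, SE 0.08, adjusted p = 8.75e-08). Nuclear receptors rose in 18 and fell in 7 of 36, 12 of the rises by 2-fold or more, with a median of 0.46. NR6A1, an orphan receptor of germ cells, had 170 and 165 in NC and 832 and 829 with siMEX3A_1 (2.31, SE 0.08, adjusted p = 2.30e-08). PPARG had 638 and 734 in NC and 1615 and 1491 with siMEX3A_1 (1.18, SE 0.08, adjusted p = 2.35e-06), and the glucocorticoid receptor NR3C1 had 790 and 679 in NC and 1452 and 1780 with siMEX3A_1 (1.14, SE 0.11, adjusted p = 1.49e-05). In these 4 genes both siMEX3A_1 libraries were the higher ones. Clock genes fell in 10 and rose in 3 of 22, with PER1 at 680 and 733 in NC and 247 and 214 with siMEX3A_1 (-1.62, SE 0.09, adjusted p = 5.31e-07) and ARNTL at 81.4 and 96.5 in NC and 232 and 239 with siMEX3A_1 (1.40, SE 0.11, adjusted p = 5.35e-06). The repressor PER1 and the activator ARNTL thus lay on opposite sides. Antisense long non-coding RNAs rose in 103 and fell in 42 of 437. DESeq2 called 64 of them up and 20 down, and requiring a mean of at least 50 counts left 64 up. The falls were also fewer without NC replicate 2 or without siMEX3A_1 replicate 2. Whether the counting used strand is not stated in the notes, so reads of an antisense RNA and of its partner gene cannot be told apart.

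The siMEX3A_2 libraries allowed a direct test of where siMEX3A_1 differed from another siRNA to the same gene, in the model that also holds the NC libraries. Between the siRNAs 9582 rows were called, or 51.6%, with 4836 higher (26%) and 4746 lower (25.5%) with siMEX3A_1. MEX3A itself had 73 and 76.1 normalised counts with siMEX3A_2, and the difference between the siRNAs was -0.29 (SE 0.18, adjusted p = 0.212), which did not pass the threshold. Families differed between the siRNAs by their own counts. Mitochondrial ribosomal protein genes were higher with siMEX3A_1 in 48 and lower in 10 of 78, ribosome biogenesis genes in 32 and 4 of 52, endoplasmic reticulum folding genes in 30 and 5 of 39, and complex I genes in 24 and 2 of 45. Sterol genes were higher in 5 and lower in 23 of 32, cytosolic ribosomal protein genes in 11 and 46 of 79, interferon-stimulated genes in 10 and 25 of 45, and zinc finger genes in 58 and 106 of 422.

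Single genes showed both kinds of outcome, and those given here were chosen after their differences were seen. SEC23B had 2157 and 2089 normalised counts with siMEX3A_2, a difference of -2.60 (SE 0.07), and PCBP1 had 5743 and 5703, a difference of -2.06 (SE 0.05). For both genes the siMEX3A_2 libraries were near or above the NC libraries and only the siMEX3A_1 libraries were low. CDH1 had 49 and 71.1 with siMEX3A_2, a difference of -0.27 (SE 0.26, adjusted p = 0.432). ATF3 had 3316 and 3349, a difference of 0.14 (SE 0.06, adjusted p = 0.0619), and DUSP5 had 6705 and 6310, a difference of 0.16 (SE 0.07, adjusted p = 0.083). These 3 differences did not pass the threshold, and that does not show equality. The widest gaps among the named genes were 5.35 for IGFBP3, which had 521 and 525 with siMEX3A_2, and -3.50 for CCL2, which had 408 and 443. No test is read from differences picked in this way.

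**Figure D5:**
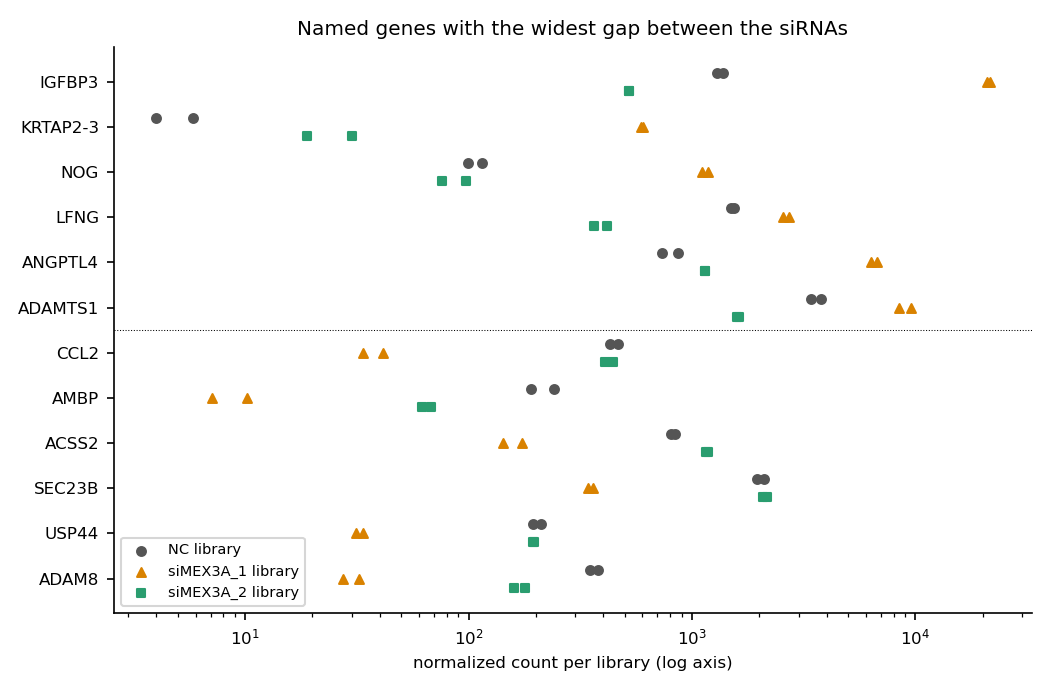
Normalised counts per library on a log axis for the 6 named genes most above and the 6 most below in siMEX3A_1 relative to siMEX3A_2, with NC as grey circles, siMEX3A_1 as orange triangles and siMEX3A_2 as green squares. IGFBP3, NOG, LFNG and ADAMTS1 lie below NC with siMEX3A_2 and above it with siMEX3A_1, and CCL2, SEC23B and USP44 are low in siMEX3A_1 libraries alone.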

How the data were processed

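Expected counts per gene row were estimated by the authors and deposited without normalisation, in tables of 60409 rows. Per the submitters' processing notes the tools were STAR and RSEM and the build was GRCh37 (hg19), and their versions, their order and the use of strand are not given in the sources used here. The deposited siMEX3A_1 table also holds, per the file headers, the authors' mean normalised count and test statistic (a score each), log2 fold change with its standard error, and p-value with its adjusted p-value. Those columns were read only for MEX3A and for the authors' calls, of which there were 7032.

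Expected counts were rounded to whole numbers and tested with edgeR 4.0.16 in R 4.3.3, with TMM scaling, the filterByExpr filter, a quasi-likelihood test and Benjamini-Hochberg adjustment over the 18583 tested rows. All 6 libraries entered 1 model and shared its estimate of spread, a biological coefficient of variation of 6.3%. The standard error of a log2 fold change is its size divided by the square root of its F statistic. DESeq2 1.42.0, other scalings, other filters, a replicate block, the 4 libraries alone, rows with unique names alone and each library left out were the alternatives.

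The members and lists were chosen with earlier results of these data known. The genes named by rule were MEX3A, in each family up to 4 members with the lowest p and a mean of at least 50 normalised counts, and the 15 largest rises and falls outside the cell cycle list with a mean of at least 100 and no overlap. Rows with clone-based, date or readthrough names could not enter the 15 largest rises and falls. Family members called only after passing the filter are not all members of a family, since rows with few counts were not tested. Some members are not reported here. Promoters are from RefSeq on GRCh38.p14 and were matched by symbol, and the siRNA sequences are not given in the sources used here.

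The procedure was tested on simulated data for siMEX3A_1 against NC over 18299 genes. It called 88% of 100 genes with a simulated log2 change of 1, 54% of 100 genes with 0.5, and 6 of 18099 unchanged genes. The changed genes lay above a count floor and went up and down in equal number, and every gene had the same spread of 6.3%. In the data 52.9% of rows were called and spread can differ by gene. The simulation therefore does not give the rate of false calls or the effect of scaling in these data.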

Additional observations from a re-analysis of the deposited data

How the results depend on the processing

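All 307 genes named by rule kept their direction under every alternative, and 306 kept their call. The exception was MEX3A, whose adjusted p with DESeq2 was 0.0593. Apart from MEX3A these genes were picked for low p-values or large changes in the same libraries. Their stability was largely set by that choice and is no measure for other genes. The number of calls was 8093 with DESeq2 (4187 higher, 3906 lower), 9843 with median-ratio scaling, 8987 without a filter on low counts, 9430 with the 4 libraries alone and 9815 with unique names alone. Requiring a mean of at least 50 counts left 13045 genes, and the count of at least 2-fold rises was 829 among these fewer genes, against 1304. Scaling by library totals alone gave 4534 higher and 5358 lower calls, and between the siRNAs 4434 and 5150.

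Leaving out 1 library at a time gave 8393 to 9087 calls, 4228 to 4718 higher and 4052 to 4440 lower. At least 2-fold rises then ranged from 1207 to 1290 and falls from 1662 to 1803. Between the siRNAs, leaving out either siMEX3A_1 library gave 8686 to 8925 calls, 4455 to 4494 higher and 4231 to 4431 lower. Where an arm was left with 1 library, that library was assumed to vary like the others. Of 1848 family counts 1797 stayed within 1.5 times.

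A replicate block over all 6 libraries gave 9328 calls, 4747 higher and 4581 lower. At 2-fold or more the block left 1249 higher and 1779 lower, and it gave 9101 calls between the siRNAs. Libraries with the same number in NC and siMEX3A_1 had deviations that correlated at -0.33, so the numbers were not taken to pair them. With the 4 libraries alone and 17949 rows tested, the same-number block gave 8243 calls and the crossed pairing 10571, against 9430 with no block. Both of these blocks were added after seeing the data, and they were not checked for single genes or families. Genes with few counts were called least often, and the part of depth in this was not tested.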

Other observations

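Several rows outside the families stood far apart between the groups, and they were picked for that after their values were seen. CU639417.2, a clone-named row, had 34.8 and 27.3 normalised counts in NC, 1445 and 1518 with siMEX3A_1 and 673 and 764 with siMEX3A_2. AC011611.3 was at 0 in both NC libraries and had 314 and 462 with siMEX3A_1 and 102 and 62.1 with siMEX3A_2. AC119673.1 went the other way, from 613 and 1080 in NC to 40.4 and 0 with siMEX3A_1. SERPINB7, a member of the serpin protease inhibitor family, had 4.96 and 3.9 in NC and 79.9 and 108 with siMEX3A_1. NXPH2, a secreted neurexophilin, had 138 and 129 in NC and 1.01 and 4.08 with siMEX3A_1. ADAM33, a membrane-bound metalloprotease, had 65.5 and 48.8 in NC and 2.02 and 0 with siMEX3A_1. The groups did not overlap in any of these 6 rows. Clone-named rows as a set were called less often than all rows, with 11.9% of 2709 higher and 10.6% lower.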
